A study of Danio rerio with 4 samples.

Results

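Aminoacyl-tRNA synthetases are the enzymes that load each amino acid onto its matching tRNA. The genes described here come from a list of 32 zebrafish synthetase genes, 18 for the cytosolic enzymes (symbols ending in 1, with farsa and farsb) and 14 for the mitochondrial enzymes (symbols ending in 2). A gene was measured where the RefSeq accession of an array probe mapped to its symbol. That gave 21 genes with 33 probes, 11 cytosolic and 10 mitochondrial, out of 11668 genes with a probe. The cytosolic eprs1, gars1, hars1, nars1, qars1, rars1 and vars1 and the mitochondrial aars2, cars2, ears2 and mars2 had no matched probe and were not analysed here. The RefSeq table has the symbol hars in place of hars1, and no probe carries a transcript accession listed for hars. All 21 passed the filter on dim probes, and the brightest probe of each was well above background in both dyes on all 4 arrays. The assignment to a compartment rests on the symbols.

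Whole zebrafish embryos were sampled at 12 and 24 hours post fertilization (hpf). Morphants had received, as 1-cell embryos, a morpholino against Bad, a pro-apoptotic BH3-only protein (MO-Bad), and wild-type embryos (WT) of the same age served for comparison, with 200 embryos per group. Each age had 2 biological replicates, and each replicate was hybridized to 1 array on which Cy5 carried the morphant RNA and Cy3 that of the wild type. The labels name no strain, no control morpholino and no dye swap, so the knockdown, the injection and the dye cannot be told apart in a ratio. Whole embryos were extracted, so fewer cells of a type and less RNA per cell cannot be told apart either.

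All 4 arrays lay on 1 slide, and their number limits the precision. Median Cy3 signals were between 52 and 76 over backgrounds of 29 to 32, and median Cy5 signals between 88.5 and 136 over backgrounds of 48.5 to 49. The probe for badb, the Bad gene measured, had log2 ratios of −0.30 and −0.20 at 12 hpf and −0.42 and −0.20 at 24 hpf. The labels do not say which Bad gene the morpholino targets. In the wild type 14 of 20 measured stage markers rose and 5 fell from 12 to 24 hpf, and all 9 measured maternal mRNAs fell. Of all genes 34.3% rose and 40.8% fell in that comparison. The markers hbbe1.1, ctslb and buc were not among the genes tested.

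Synthetases fall into class I and class II by the fold of their catalytic domain. In animals the cytosol and the mitochondria use largely separate enzymes, all encoded in the nucleus, and several cytosolic enzymes sit in a multisynthetase complex held together by Aimp scaffold proteins. In mammalian cells many cytosolic synthetase genes belong to the amino acid response driven by the transcription factor Atf4, and in zebrafish, mutants of sars1 and tars1 are known for excess vessel branching.

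The synthetase genes were selected on measured values, the ratios of morphant over wild type at both ages on all 4 arrays, and the contrast of cytosolic with mitochondrial genes was picked from the same values. These ratios are given as a description, with no p-value for any synthetase gene. A ratio is the log2 of Cy5 over Cy3 after background correction and loess normalization within the array, and a gene is represented by its brightest probe. Errors of ratios are SD over n = 2 arrays.

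The synthetase genes lay on both sides of 0 in the ratio of morphant over wild type, and aars1 had the lowest mean at both ages. At 12 hpf 16 of the 21 genes had mean ratios within 0.2 of 0, and at 24 hpf 10 of the 21 did. The median over the cytosolic genes was −0.024 at 12 hpf and 0.048 at 24 hpf. Over the mitochondrial genes it was −0.012 and 0.00068, beside −0.00071 and −0.0028 over all 10206 genes tested. Below 0 on all 4 arrays were 5 genes, aars1, farsa, fars2, lars2 and yars2. Above 0 on all 4 were tars1, wars1, pars2 and wars2. How many of all genes kept the same sign on all 4 arrays is not given here, so nothing is read from these counts. A dimmer tars1 probe was below 0 on all 4 arrays, with means of −0.20 at 12 hpf and −0.056 at 24 hpf.

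**Figure D1:**
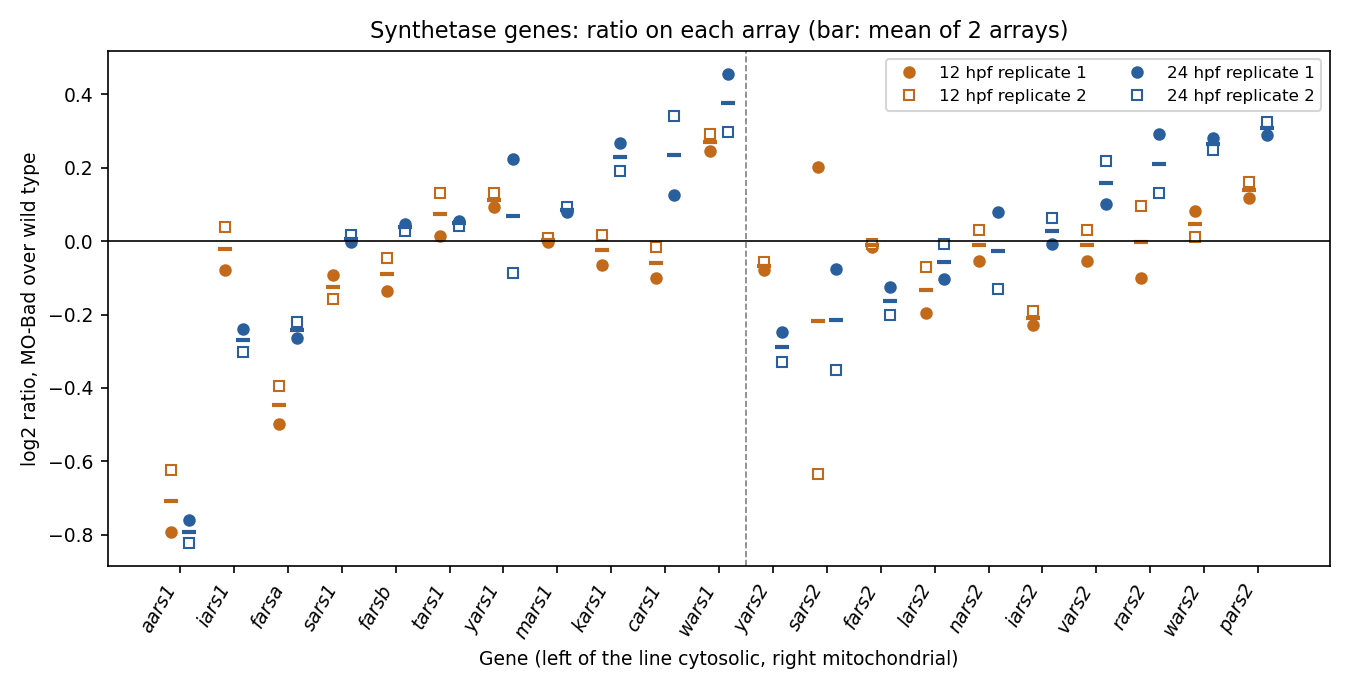
Log2 ratio of MO-Bad over wild type (y axis) for each of the 21 synthetase genes (x axis, cytosolic left of the dashed line), as single arrays at 12 hpf (orange) and 24 hpf (blue) with bars at the mean of 2 arrays. The aars1 points lie between −0.82 and −0.62, and the only point of another gene in that range is the second 12 hpf array of sars2 at −0.63.

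The class II gene aars1, for alanyl-tRNA synthetase, had ratios of −0.79 and −0.62 at 12 hpf and −0.76 and −0.82 at 24 hpf. It was lower in the morphant on every array, with means of −0.71 ± 0.12 (1.63-fold) and −0.79 ± 0.044 (1.73-fold). Counted from the lowest ratio it ranked 47 of 10206 genes at 12 hpf and 61 at 24 hpf. Its dimmer probe gave means of −0.57 and −0.53. Median centring of each array in place of loess moved the median of all genes to 0.28 at 12 hpf and 0.25 at 24 hpf. Under it the aars1 means were −0.24 and −0.34, which is −0.52 and −0.59 relative to all genes. From the signals as processed by the scanner software they were −0.61 and −0.74.

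The cytosolic phenylalanyl-tRNA synthetase is built from the catalytic alpha subunit Farsa and the beta subunit Farsb. The farsa ratios were −0.50 and −0.39 at 12 hpf and −0.26 and −0.22 at 24 hpf, all below 0. Their means were −0.45 ± 0.074 and −0.24 ± 0.030, and those of the dimmer farsa probe were −0.35 and −0.20. For farsb the means were −0.091 ± 0.064 and 0.037 ± 0.015, and those of its dimmer probe were −0.24 and 0.033. Median centring put farsa at 0.093 and 0.28, or −0.19 and 0.039 relative to the median of all genes. With it farsa was below that median at 12 hpf and not at 24 hpf.

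Among the other class II cytosolic genes, sars1, for the seryl enzyme, had −0.093 and −0.16 at 12 hpf and −0.0030 and 0.016 at 24 hpf. The lysyl enzyme gene kars1, which in humans also encodes the mitochondrial form, had −0.064 and 0.017 at 12 hpf and 0.27 and 0.19 at 24 hpf. In both genes the 24 hpf values of the brightest probe lay above the 12 hpf values. How many of all genes did so is not given here, and nothing is read from it. The 3 dimmer kars1 probes had means of −0.034, −0.31 and −0.35 at 12 hpf and 0.11, −0.056 and 0.019 at 24 hpf, and the mean over all its probes was −0.18 and 0.076. The threonyl enzyme gene tars1 had 0.015 and 0.13 at 12 hpf and 0.055 and 0.042 at 24 hpf, with the ages overlapping.

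Of the class I cytosolic genes, wars1, for the tryptophanyl enzyme, had the highest mean ratios at both ages. They came from 0.25 and 0.29 at 12 hpf and 0.45 and 0.30 at 24 hpf, with means of 0.27 ± 0.033 and 0.38 ± 0.11. All its values lay above 0, and counted from the lowest ratio wars1 ranked 9281 and 9823 of 10206 genes. The isoleucyl enzyme gene iars1, whose product belongs to the multisynthetase complex, had −0.079 and 0.039 at 12 hpf and −0.24 and −0.30 at 24 hpf. The cysteinyl enzyme gene cars1 had −0.10 and −0.017 at 12 hpf and 0.13 and 0.34 at 24 hpf, so it was higher at the later age where iars1 was lower. The dimmer cars1 probes had 24 hpf means of −0.028 and −0.098. The tyrosyl enzyme gene yars1 had 0.093 and 0.13 at 12 hpf and 0.22 and −0.088 at 24 hpf, the later arrays differing in sign. The methionyl enzyme gene mars1, also of the complex, had −0.0036 and 0.0083 at 12 hpf and 0.078 and 0.094 at 24 hpf.

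No mitochondrial synthetase gene had a mean ratio as low as that of aars1. The prolyl enzyme gene pars2 had 0.12 and 0.16 at 12 hpf and 0.29 and 0.33 at 24 hpf, and the tryptophanyl wars2 had 0.081 and 0.011 and then 0.28 and 0.25. For the arginyl rars2 the values were −0.10 and 0.096 and then 0.29 and 0.13, and for the valyl vars2 −0.054 and 0.032 and then 0.10 and 0.22. In each of these genes both 24 hpf arrays lay above both 12 hpf arrays. The share of all genes that did so is not given here, and no pattern is read from it.

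On the low side the tyrosyl yars2 had −0.078 and −0.056 at 12 hpf and −0.25 and −0.33 at 24 hpf. The phenylalanyl fars2 had −0.016 and −0.0079 and then −0.13 and −0.20, and the leucyl lars2 −0.19 and −0.071 and then −0.10 and −0.0080. All 3 were below 0 on every array. The isoleucyl iars2 had −0.23 and −0.19 at 12 hpf against −0.0078 and 0.062 at 24 hpf. The seryl sars2 read 0.20 and −0.63 on the 12 hpf arrays (mean −0.22 ± 0.59), so its sign there rests on the array, and −0.076 and −0.35 at 24 hpf. The asparaginyl nars2 had means of −0.012 ± 0.059 and −0.026 ± 0.15, within the spread of its arrays.

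Limma, the linear model fitted over all 28320 probes with Benjamini-Hochberg adjustment at 0.05, called 23.3% of all genes at 12 hpf (12.4% higher and 10.9% lower) and 26.2% at 24 hpf (12.1% higher and 14.1% lower). The synthetase genes past that threshold numbered 1 higher and 3 lower at 12 hpf, and 5 higher and 4 lower at 24 hpf. Since the genes were selected on these ratios, the counts are no test of them and nothing is read from them. With median centring the higher and lower counts were 0 and 0 at the early age and 0 and 0 at the late age. With processed signals they were 0 and 1, then 0 and 0. Over all genes 2379 were called at 12 hpf and 2674 at 24 hpf with loess. Median centring called 166 and 0 of all genes, and processed signals 724 and 3.

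The cytosolic median minus the mitochondrial median was −0.026 and 0.0066 at 12 hpf and 0.020 and −0.00036 at 24 hpf. The replicates differed in sign at both ages, and the means of −0.0095 ± 0.023 and 0.0097 ± 0.014 (SD, n = 2 arrays) were smaller than their SD. Taken between the medians of the mean ratios, the difference was −0.012 at 12 hpf and 0.048 at 24 hpf. When single arrays were left out, the 24 hpf difference ran from −0.00036 to 0.048. The probes of the compartments differed in brightness, with mean log2 intensities of 9.87 to 15.3 for the cytosolic and 6.82 to 11.4 for the mitochondrial genes. With median centring, and relative to the median of all genes, the cytosolic genes were at 0.21 and 0.29 and the mitochondrial genes at −0.063 and −0.021, a difference between medians of mean ratios of 0.27 and 0.31. The part of brightness in that difference was not tested.

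**Figure D2:**
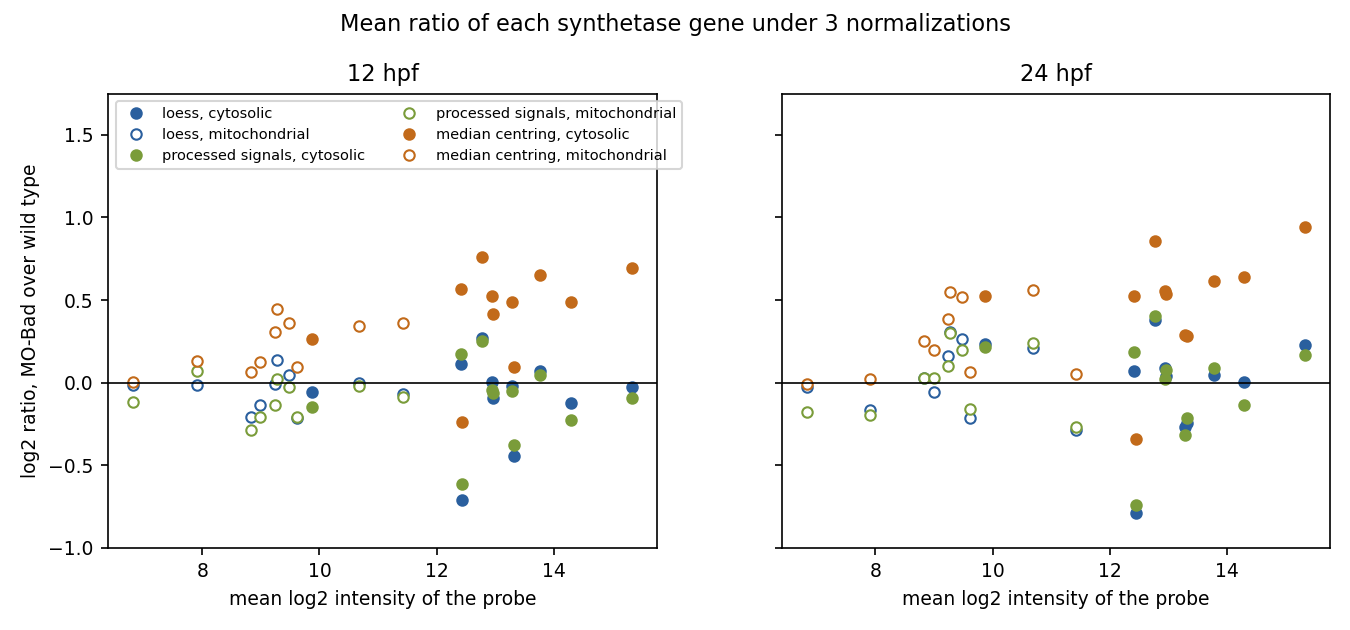
Mean log2 ratio of MO-Bad over wild type (y axis) of each synthetase gene against the mean log2 intensity of its brightest probe (x axis), at 12 hpf (left) and 24 hpf (right), under loess (blue), the scanner software's processed signals (green) and median centring (orange), with cytosolic genes filled and mitochondrial genes open. The median-centred values of the bright cytosolic genes lie above the loess values, with kars1 at 0.94 in place of 0.23 at 24 hpf.

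By class, the median ratio over the 11 class I genes was −0.011 at 12 hpf and 0.086 at 24 hpf. Over the 10 class II genes it was −0.057 and −0.0095, with aars1 at the lower end. The measured enzymes of the multisynthetase complex, iars1, kars1 and mars1, had a median of −0.020 and 0.086.

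The change with age within the wild type was tested. It is another contrast than the ratio, although the wild-type signal is also the ratio's denominator. From 12 to 24 hpf 7 of the 21 synthetase genes rose (fars2, iars1, lars2, rars2, sars2, wars1 and yars1), 7 fell (iars2, kars1, mars1, pars2, vars2, wars2 and yars2), and the other 7 did not pass. That is 66.7% of the synthetase genes beside 75.1% of all genes (34.3% higher and 40.8% lower), a share no higher than the background. By compartment 3 rose and 2 fell of the 11 cytosolic genes (median change 0.14), and 4 rose and 5 fell of the 10 mitochondrial genes (−0.17), beside a median of −0.077 over all genes. Relative to all genes the medians were 0.22 and −0.089, and with median centring −0.023 and 0.089, so that the order of the compartments turned with the scaling. Levels are log2 Cy3 intensities after loess and Aquantile normalization. For levels and their changes, median centring took the place of Aquantile, and loess was kept. Errors of changes are SE, and limma's p-values are two-sided and adjusted over all probes. Where 1 array is left out, its age has a single array, which is assumed to vary like the pair of the other age.

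Of the cytosolic genes, iars1 had the largest change by the brightest probe with Aquantile normalization. With median centring in its place kars1 and mars1 changed more. The iars1 level (wild type, log2) was 12.93 and 12.88 at 12 hpf and 13.84 and 13.80 at 24 hpf, a rise of 0.91 ± 0.077 (1.88-fold, limma adjusted p = 8.3e-05). With median centring the rise was 0.56 (adjusted p = 8.8e-04). The yars1 level went from 12.15 and 12.16 to 12.57 and 12.66, a rise of 0.46 ± 0.080 (limma adjusted p = 0.00222). Under that centring it was 0.16 (adjusted p = 0.285). The wars1 level went from 12.55 and 12.46 to 12.68 and 12.80, a rise of 0.24 ± 0.086 (limma adjusted p = 0.0469). That call was lost under 9 of 13 alternatives, among them the runs without 12 hpf replicate 2 (0.19), 24 hpf replicate 1 (0.29) and 24 hpf replicate 2 (0.18), and median centring gave −0.11.

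Of the 3 measured enzymes of the complex, mars1 and kars1 fell with age. The mars1 level went from 13.09 and 13.08 to 12.82 and 12.68, a change of −0.33 ± 0.086 (limma adjusted p = 0.0123), not called without 24 hpf replicate 2 (−0.26, adjusted p = 0.0851). Median centring put the mars1 fall at −0.68. The kars1 level went from 15.48 and 15.38 to 15.11 and 15.17, a change of −0.30 ± 0.082 (limma adjusted p = 0.0163). The kars1 result missed the threshold without 12 hpf replicate 1 (−0.25, adjusted p = 0.0596), 24 hpf replicate 1 (−0.27, adjusted p = 0.0923) or 24 hpf replicate 2 (−0.33, adjusted p = 0.0524), and with processed signals (−0.30, adjusted p = 0.0575). It was −0.73 with median centring and −0.58 when its probes were averaged. For aars1 the wild-type change was 0.23 ± 0.12 (95% interval −0.051 to 0.51, limma adjusted p = 0.121). The farsa change of −0.0080 ± 0.088 and the tars1 change of −0.027 ± 0.078 had 95% intervals of −0.22 to 0.20 and −0.22 to 0.16. Median centring put both outside these intervals and called them lower, farsa at −0.37 (limma adjusted p = 0.0231) and tars1 at −0.39 (adjusted p = 0.00918). The cars1, farsb and sars1 changes were 0.042 ± 0.10, 0.14 ± 0.084 and 0.19 ± 0.087, none called by the brightest probe.

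Of the 10 mitochondrial genes 9 passed, beside 75.1% of all genes, and with so few genes nothing is read from that count. Those that rose were rars2, fars2, lars2 and sars2. The rars2 level went from 10.33 and 10.24 to 10.99 and 11.11, a rise of 0.76 ± 0.086 (1.70-fold, limma adjusted p = 3.1e-04), or 0.48 when its probes were averaged. The fars2 level went from 7.71 and 7.49 to 8.28 and 8.31, a rise of 0.70 ± 0.098 (1.62-fold, limma adjusted p = 8.5e-04), or 1.07 with processed signals. The lars2 level went from 8.87 and 8.79 to 9.30 and 9.24, a rise of 0.44 ± 0.080 (limma adjusted p = 0.00281). In these genes, and in sars2, every 24 hpf array lay above every 12 hpf array. The share of all genes whose ages separated in this way is not given here, so nothing is read from it. The sars2 level went from 9.57 and 9.66 to 9.80 and 9.87, a rise of 0.22 ± 0.082 at the edge of the threshold (limma adjusted p = 0.0499). The sars2 call, too, was lost under 9 of 13 alternatives, among them the runs without 12 hpf replicate 1 (0.17), 24 hpf replicate 1 (0.26) or 24 hpf replicate 2 (0.18).

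The largest fall was that of vars2, from 9.76 and 9.58 to 8.78 and 8.63, a change of −0.97 ± 0.10 (1.95-fold, limma adjusted p = 2.1e-04). The yars2 level went from 11.87 and 11.83 to 11.06 and 11.16, a change of −0.74 ± 0.081 (1.67-fold, limma adjusted p = 2.7e-04). The pars2 level went from 9.38 and 9.50 to 8.96 and 8.77, a change of −0.57 ± 0.098 (limma adjusted p = 0.00213). None of these genes had a 24 hpf array as high as a 12 hpf array. The wars2 level went from 9.60 and 9.64 to 9.21 and 9.14, a change of −0.45 ± 0.079 (limma adjusted p = 0.00243). The iars2 level went from 9.13 and 8.98 to 8.65 and 8.72, a change of −0.37 ± 0.089 (limma adjusted p = 0.00945), not called without 24 hpf replicate 1 (−0.34, adjusted p = 0.0601), nor under median centring (−0.22, adjusted p = 0.149). In both genes, too, the ages did not overlap, and as for the genes that rose nothing is read from this. For nars2 the change was 0.036 ± 0.096 (95% interval −0.19 to 0.27).

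**Figure D3:**
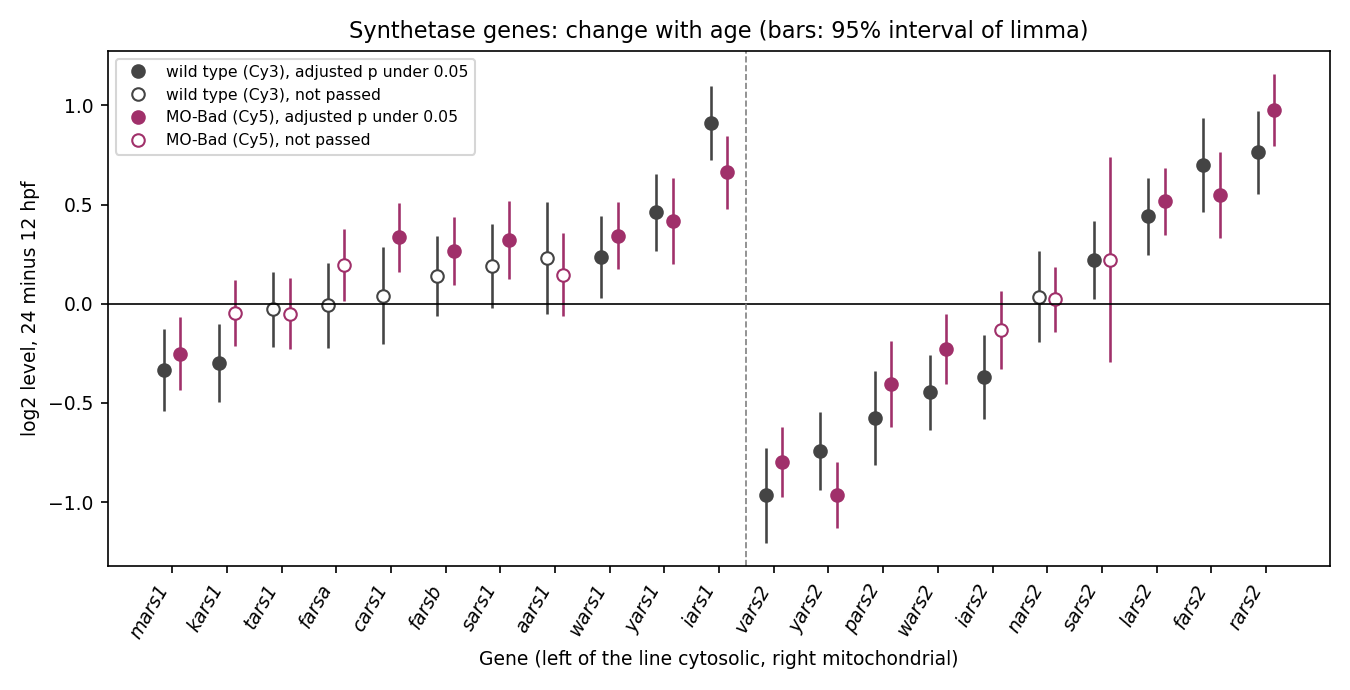
Change in log2 level from 12 to 24 hpf (y axis) of each synthetase gene (x axis, cytosolic left of the dashed line) in wild type (grey) and MO-Bad embryos (magenta), with 95% intervals of limma and filled circles where the adjusted p was under 0.05. The rises of iars1 (0.91) and rars2 (0.76) and the falls of vars2 (−0.97) and yars2 (−0.74) are the largest in the wild type, and the sars2 interval in the morphant is the broadest.

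In the morphant, tested in the same way on Cy5, 9 of the 21 synthetase genes rose and 5 fell, again 66.7%, beside 77.2% of all genes (34.4% higher and 42.8% lower). The rars2 rise was 0.98 ± 0.076 (1.97-fold, limma adjusted p = 2.4e-05) and the iars1 rise 0.66 ± 0.077 (1.58-fold, limma adjusted p = 1.9e-04), the latter 0.31 with median centring. The fars2 and lars2 rises were 0.55 ± 0.091 (limma adjusted p = 0.00122) and 0.52 ± 0.071 (limma adjusted p = 4.6e-04). Among the genes that fell, yars2 was at −0.96 ± 0.070 (limma adjusted p = 1.7e-05), vars2 at −0.80 ± 0.074 (limma adjusted p = 6.1e-05) and pars2 at −0.41 ± 0.092 (limma adjusted p = 0.00555). These 7 genes were called in the same direction in the wild type. So were yars1 (0.42 ± 0.092, limma adjusted p = 0.0050), wars1 (0.34 ± 0.072, adjusted p = 0.00382), mars1 (−0.25 ± 0.078, adjusted p = 0.0222) and wars2 (−0.23 ± 0.075, adjusted p = 0.0284). Median centring gave 0.12 for yars1, 0.0016 for wars1 and −0.13 for wars2, none of them called. With processed signals mars1 (−0.27, limma adjusted p = 0.0518) and wars2 (−0.26, adjusted p = 0.0664) were not called. Both dyes were read from the same spots and share a normalized mean intensity, so that agreement is no independent observation.

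Called in the morphant and not in the wild type were cars1 (0.33 ± 0.073, limma adjusted p = 0.00474), sars1 (0.32 ± 0.083, limma adjusted p = 0.0101) and farsb (0.27 ± 0.073, limma adjusted p = 0.0125). With its probes averaged sars1 was called in the wild type too (0.22, limma adjusted p = 0.0392). The reverse held for sars2, iars2 and kars1. In the morphant iars2 changed by −0.13 ± 0.084 (limma adjusted p = 0.193) and kars1 by −0.046 ± 0.070 (adjusted p = 0.577). The morphant kars1 fall was called with averaged probes (−0.33, limma adjusted p = 0.00414) and median centring (−0.47, adjusted p = 0.00117). A gene's difference between the changes equals the difference of its ratios at the 2 ages, which was not tested. When all probes of a gene were averaged the cars1 change was 0.062 (adjusted p = 0.458) and the farsb change −0.0040. Without 24 hpf replicate 1 sars1 was at 0.26 (adjusted p = 0.0647) and farsb at 0.23 (adjusted p = 0.0705). Median centring gave −0.060 for sars1 and −0.076 for farsb. The sars2 levels of the morphant were 9.77 and 9.03 at 12 hpf, and its change was 0.22 ± 0.22 (limma adjusted p = 0.385). Without 12 hpf replicate 1, which leaves the array at 9.03 alone at that age, the change was 0.60.

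For 4 amino acids both the cytosolic and the mitochondrial enzyme gene were measured, and the pairs were compared after their values were seen. In the wild type iars1 rose by 0.91 and iars2 changed by −0.37, a difference of 1.28. The yars1 and yars2 changes differed by 1.20, the wars1 and wars2 changes by 0.68, and those of sars1 and sars2 by −0.029. Median centring gave 0.77, 1.06, 0.24 and −0.50 for the isoleucyl, tyrosyl, tryptophanyl and seryl pairs. In the morphant the differences were 0.79, 1.38, 0.57 and 0.10 in the same order, and 0.29, 1.23, 0.13 and −0.37 with median centring. The sign of the seryl difference also changed between runs that left out 1 array. The gap between the genes of a pair, taken on each array, did not overlap between the ages for the isoleucyl, tyrosyl and tryptophanyl enzymes. It overlapped for the seryl enzymes. The share of other gene pairs without overlap is not given here, so nothing is read from this. The differences between the genes of a pair were not tested.

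Probes of the same gene did not always change alike with age. In the wild type 5 of the 8 genes with 2 or more probes had all of them on the same side of 0. The aars1 probes changed by 0.23 (limma adjusted p = 0.121) and −0.51 (adjusted p = 0.0318). In the morphant the brighter farsb probe changed by 0.27 (limma adjusted p = 0.0125) and the dimmer by −0.28 (adjusted p = 0.0159), so the same gene gave calls of opposite sign. All 4 kars1 probes fell in the wild type, with changes from −1.14 to −0.30. A dimmer probe of cars1 (−0.35, limma adjusted p = 0.0133), farsb (−0.55, adjusted p = 0.00234), tars1 (−0.38, adjusted p = 0.00703) and sars1 (0.26, adjusted p = 0.0247) was called in the wild type where the brightest was not. The rars2 probes gave 0.76 and 0.19, and the dimmer was not called (limma adjusted p = 0.114). The brightest tars1 probe carries another RefSeq accession than the other 2 probes of that gene. In the ratio of morphant over wild type 6 of the 8 genes had all probes on the same side of 0 at 12 hpf and 5 at 24 hpf, aars1 and farsa among them at both ages.

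**Figure D4:**
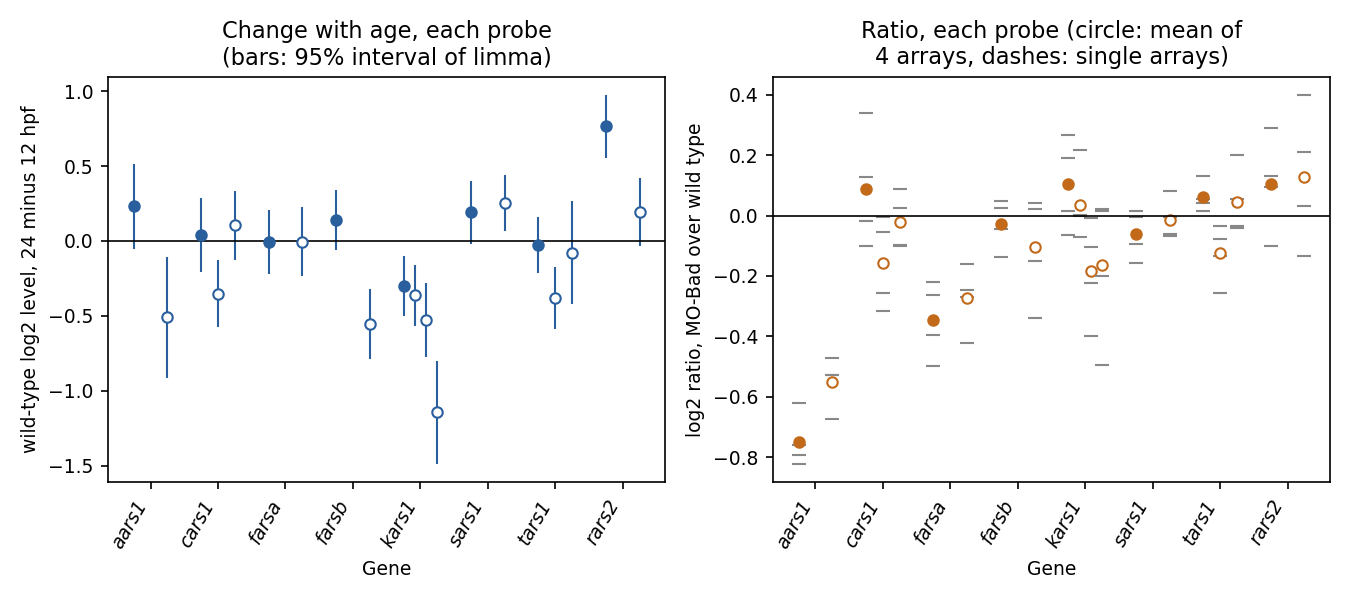
Every probe of the 8 synthetase genes with 2 or more probes, brightest filled and leftmost, with the wild-type change in log2 level from 12 to 24 hpf and its 95% limma interval (left) and the log2 ratio of MO-Bad over wild type as the mean of 4 arrays with single arrays as dashes (right). Both aars1 probes are low in the ratio, whereas their changes with age, 0.23 and −0.51, lie on opposite sides of 0.

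Other genes of tRNA charging and translation are given from lists, with up to 4 genes of each named by the size of their ratio. The lists were chosen with earlier results of these data known. The p-values of their ratios therefore describe the named genes and are no test of them. Among all 10206 genes the share that passed as higher in the morphant was 12.4% at 12 hpf and 12.1% at 24 hpf, and the share that passed as lower was 10.9% and 14.1%. The scaffold genes aimp1a, aimp1b and aimp2 had ratios from −0.058 to 0.041 at 12 hpf and from 0.11 to 0.17 at 24 hpf, with 0 of 3 called. In the wild type aimp1b rose with age by 4.77 (limma adjusted p = 2.7e-07) and aimp1a by 0.67 (adjusted p = 4.3e-04). Of 10 measured genes of tRNA charging and quality control 1 was called higher and 1 lower in the morphant at 12 hpf (median −0.013), and 5 higher and 0 lower at 24 hpf (median 0.19). Among them dtd1, whose product removes D-amino acids from tRNA, was at 0.35 at 12 hpf (limma adjusted p = 0.00825). The mitochondrial RNase P subunit gene hsd17b10 was at 0.38 at 24 hpf (limma adjusted p = 0.00403).

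Genes of the amino acid response were called in both directions. Of 24 measured 6 were higher and 5 lower in the morphant at 12 hpf, beside 12.4% and 10.9% of all genes (list median 0.071). At 24 hpf 9 were higher and 4 lower, beside 12.1% and 14.1% (list median 0.14). The transcription factor gene atf4b was at 0.11 at 12 hpf and 0.78 at 24 hpf (limma adjusted p = 2.1e-04). Lower in the morphant at 24 hpf were ddit4, for an inhibitor of mTORC1, at −1.58 (limma adjusted p = 4.8e-05) and ppp1r15a, for a subunit of an eIF2 alpha phosphatase, at −1.27 (adjusted p = 3.1e-05). The lipoprotein receptor gene vldlr was at −0.98 at 12 hpf (limma adjusted p = 1.2e-04), and its 24 hpf ratio was −0.038. The eIF2 kinase gene eif2ak1 had 0.0045 and −0.13, neither called.

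Of 69 mitochondrial translation genes, mostly those of mitochondrial ribosomal proteins, 11 passed as higher and 6 as lower at 12 hpf, beside 12.4% and 10.9% of all genes (list median −0.061). At 24 hpf 20 were called higher and 0 lower, beside 12.1% and 14.1% (list median 0.11). At 12 hpf 25 of the 69 were above 0 and 44 below, beside 5079 and 5127 of all 10206 genes. At 24 hpf 61 of the 69 were above 0, beside 5033 of all 10206 genes, with list medians of 0.19 and 0.070 on the single arrays. The mitochondrial synthetase genes had 5 of 10 above 0 at that age. The ribosomal protein gene mrpl20 had a ratio of 0.85 at 12 hpf (limma adjusted p = 1.2e-04), and by 24 hpf its ratio was 0.76 (adjusted p = 2.6e-04). Of 18 genes of cytosolic elongation and initiation 3 were higher and 3 lower at 12 hpf (list median −0.0086), and 5 higher and 1 lower at 24 hpf (list median 0.047), read beside the same shares. The elongation factor subunit gene eef1b2 was at 0.49 at 24 hpf (limma adjusted p = 9.2e-04). The counts and the adjusted p-values of ratios in all these lists rest on loess. With median centring 166 of all genes were called at 12 hpf and 0 at 24 hpf, in place of 2379 and 2674. With processed signals 724 and 3 were called.

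**Figure D5:**
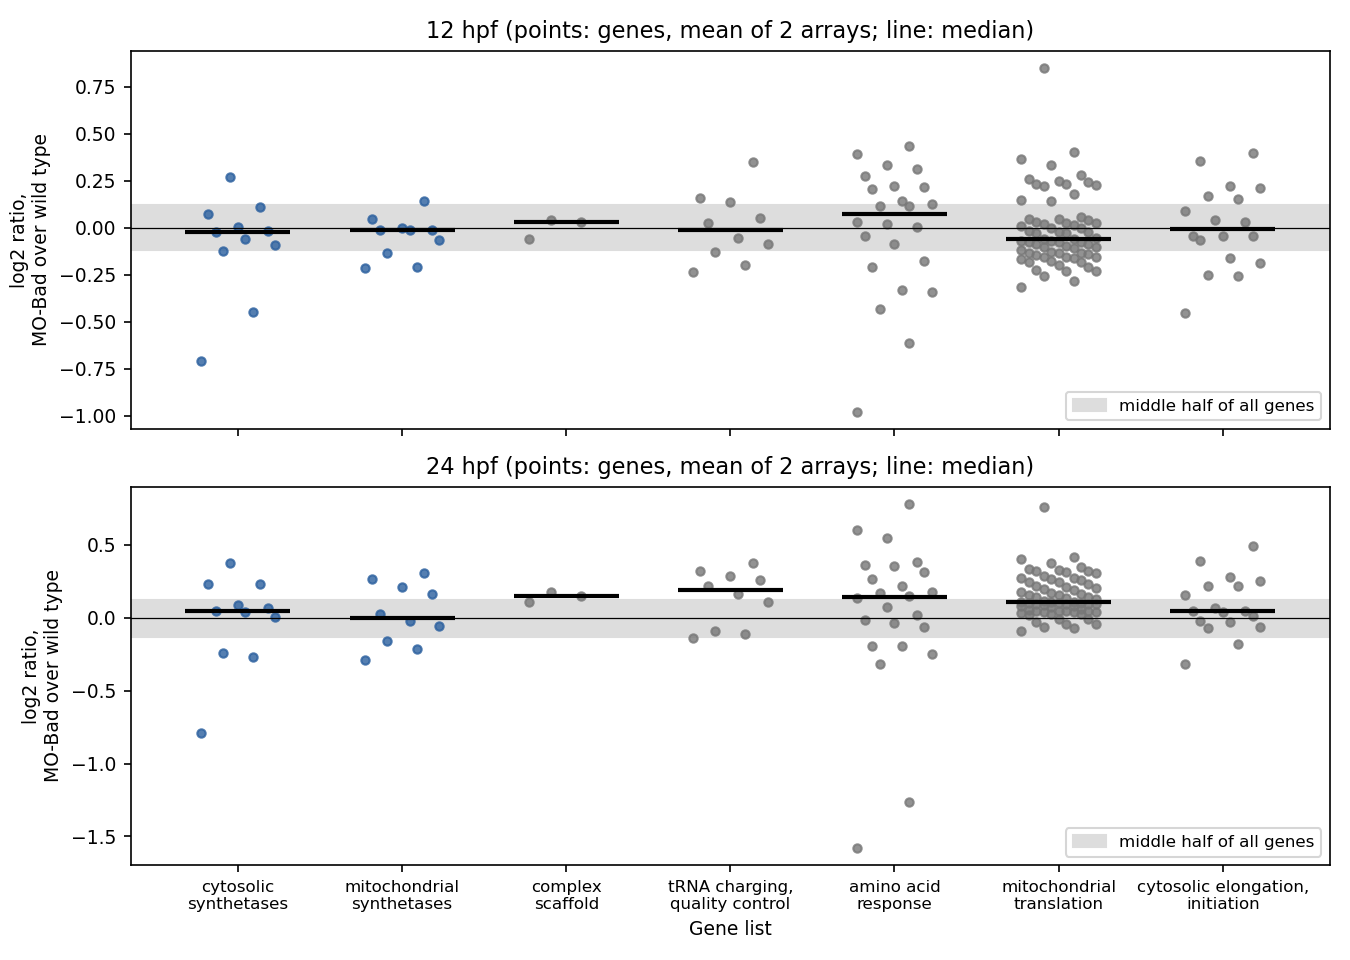
Mean log2 ratio of MO-Bad over wild type (y axis) of each gene in 7 lists (x axis) at 12 hpf (top) and 24 hpf (bottom), with synthetases in blue, other lists in grey, medians as black lines and the interquartile range of all genes as a grey band. The synthetase medians lie inside the band at both ages, and aars1 is the lowest synthetase gene at −0.71 and −0.79.

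Stage and maternal markers also differed between morphant and wild type on these arrays. Of 9 maternal mRNAs 7 were called higher in the morphant and 1 lower at 12 hpf, where their mean log2 level was 9.91 and 9.46 in the wild type and 10.55 and 10.25 in the morphant. Of 20 stage markers 4 passed as higher and 0 as lower at 12 hpf, whereas 6 passed as higher and 10 as lower at 24 hpf. Over all genes 23.3% were called at 12 hpf and 26.2% at 24 hpf. The mean log2 level of the stage markers at 24 hpf was 12.67 and 12.74 in the wild type and 12.56 and 12.59 in the morphant. The part of these differences in the synthetase ratios was not tested.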

How the data were processed

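RNA of MO-Bad and wild-type embryos was hybridized by the authors to 4 two-colour Agilent arrays. Agilent Feature Extraction 10.5.1.1 is named in the submitters' processing notes. Per the file headers, spot and local background medians are raw intensity values, and the processed signals are intensity values that this software corrected for background and dye. The deposited value table is a log10 ratio of Cy5 over Cy3, equal to the scanner's own at every spot (largest difference 0).

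Medians were corrected with normexp (offset 50), loess-normalized within arrays and, for levels, Aquantile-normalized between arrays. Control spots had weight 0, and 10 to 18 outlier spots per array were left out. Of 43603 probes, 28320 were well above background in at least 1 dye on both arrays of an age. Symbols came from RefSeq accessions (16770 of 19210 probes). Limma 3.58.1 under R 4.3.3 fitted a mean per age to the log2 ratios and 24 against 12 hpf to each dye's log2 levels. Its p-values had Benjamini-Hochberg adjustment and cover only the variation among these 4 arrays. The code was also run on simulated arrays with independent noise, which does not show how reliable the calls on these arrays are.

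Single-array values are given for the 6 highest and 6 lowest mean ratios at each age and for genes whose wild-type level passed, and other lists show up to 4 genes each. The members and lists were chosen with earlier results of these data known. Replicate numbers recur at both ages, but the labels name no shared litter or day, so no block was used. Alternatives covered background, normalization, filter, probe choice, single arrays, the deposited ratios and a replicate block. Median centring took the place of loess for ratios and of Aquantile for levels.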

Additional observations from a re-analysis of the deposited data

Results flagged for a closer look

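In 2 synthetase genes both arrays of an age lay on 1 side of 0 and both arrays of the other age on the opposite side. That difference was not tested. The share of all genes that switched sign in this way is not given here, so nothing is read from the count. The cars1 ratio had −0.10 and −0.017 at 12 hpf and 0.13 and 0.34 at 24 hpf, a difference of means of 0.29. Its other probes had means of −0.29 and −0.028, and 0.057 and −0.098, so neither went from below to above 0. The farsb ratio had −0.14 and −0.046 at 12 hpf and 0.048 and 0.027 at 24 hpf, a difference of 0.13, and its dimmer probe had means of −0.24 and 0.033.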

How the results depend on the processing

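Precision is limited by the number of arrays. Each member's brightest probe was well above background on every array. Of the 14 wild-type calls between ages, 8 (fars2, iars1, lars2, pars2, rars2, vars2, wars2 and yars2) held in all 13 alternatives, and of the 14 morphant calls 7, the same genes without wars2. The cause of the other changes was not tested. For a gene with 1 probe, averaging probes, changing the filter and the replicate block could alter only the p-value, not the size of the change. The replicate block left 5 synthetase genes risen and 7 fallen in the wild type (7341 of all genes called in place of 7668) and 9 and 5 in the morphant. Under the block the wild-type calls of wars1 and sars2 were lost (limma adjusted p = 0.0842 and adjusted p = 0.0804). Same-numbered arrays deviated with correlations of −0.041 in the ratio, −0.14 in the wild type and −0.083 in the morphant, so the numbers were not taken to pair the samples. Crossing them, an alternative chosen after seeing the data, gave 7 risen and 7 fallen in the wild type (7823 of all genes called). Median centring reversed farsa (0.093 at 12 hpf, 0.28 at 24 hpf), iars2 at 12 hpf (0.065), iars1 (0.29) and yars2 (0.052) at 24 hpf, the wild-type change of wars1 (−0.11) and the morphant changes of farsb (−0.076) and sars1 (−0.060). Relative to the all-gene medians of 0.28 and 0.25 under that setting, farsa was at −0.19 and 0.039 and iars2 at −0.22 at 12 hpf. At 24 hpf iars1 was at 0.042 and yars2 at −0.19. So under median centring farsa and iars2 at 12 hpf and yars2 at 24 hpf stayed below the median of all genes. It put the cytosolic medians relative to all genes at 0.21 and 0.29 at 12 and 24 hpf, the mitochondrial at −0.063 and −0.021 and their difference at 0.27 and 0.31, from −0.023 and 0.051, −0.011 and 0.0035, and −0.012 and 0.048. It left 0 called higher and 0 lower at the early age, 0 and 0 at the late age and 5 risen in the morphant. It also added calls of a fall with age, for farsa and tars1 in the wild type and for kars1 and tars1 in the morphant. It moved the cytosolic and mitochondrial changes with age relative to all genes to −0.023 and 0.089 in the wild type and 0.10 and 0.21 in the morphant, from 0.22 and −0.089 and from 0.36 and 0.041. Processed signals gave mitochondrial medians of −0.079 and 0.030, a 12 hpf difference of 0.039, early counts of 0 higher and 1 lower, late counts of 0 and 0, 3 fallen in the morphant, a cytosolic wild-type change of 0.23 and a mitochondrial morphant change of −0.011. The deposited ratios gave mitochondrial medians of −0.088 and 0.028, a difference of 0.039, and early and late counts of 0 higher and 1 lower, then 0 and 0. Of all genes they called 757 at 12 hpf and 36 at 24 hpf, in place of 2379 and 2674. An offset of 10 gave 0 higher at 12 hpf, 2 higher and 1 lower at 24 hpf and a cytosolic wild-type change of 0.23. Of all genes that offset called 1646 at 12 hpf and 1298 at 24 hpf. No background subtraction gave a mitochondrial 24 hpf median of −0.014 and a difference of 0.062. No filter moved the cytosolic changes to 0.18 and 0.33 and the mitochondrial morphant change to 0.0037, and the stricter filter to 0.28, 0.42 and 0.096. The mean of a gene's probes gave a 12 hpf cytosolic median of −0.087, a difference of −0.076 and cytosolic changes of 0.045 and 0.19, and reversed farsb in the morphant (−0.0040). Leaving out each array in turn gave 0 to 1 higher at 12 hpf, 0 to 6 higher and 1 to 4 lower at 24 hpf and 3 to 5 fallen in the morphant. Mitochondrial medians ran from −0.054 to 0.0021 at 12 hpf and 0.0035 to 0.047 at 24 hpf, the 24 hpf difference from −0.00036 to 0.048, cytosolic medians from −0.080 to 0.0087 and 0.024 to 0.066, the cytosolic changes from 0.15 to 0.28 in the wild type and 0.34 to 0.40 in the morphant, and the mitochondrial changes from −0.16 to −0.019 and −0.074 to 0.066.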
